A study of Mus musculus with 6 samples.

Results

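The Kruppel-like factors (KLFs) examined here were 10 genes, Klf2, Klf3, Klf4, Klf5, Klf6, Klf7, Klf9, Klf10, Klf13 and Klf15, taken by gene symbol from a table of 29955 genes. All 10 were in the table, and all 10 passed the filter on low counts that left 16378 genes for testing. The table held RNA-seq values for 6 libraries of mouse embryonic fibroblasts (MEFs), 3 labelled Rnf40+/+ and 3 labelled Rnf40-/-, all at passage 3. Rnf40 encodes a subunit of the RING finger ligase that attaches single ubiquitin molecules to histone H2B, and the comparison asks how transcript levels differ without it.

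By the study's methods, the MEFs came from embryos homozygous for Rnf40 loxP/loxP, with exons 3 and 4 floxed. They carried a Rosa26-CreERT2 transgene, which expresses a tamoxifen-inducible Cre recombinase in all cell types. The labels give the knockout step, 250 nM 4-hydroxytamoxifen (4-OHT) over 5 days and then 3 days without it, in the same words for all 6 libraries, Rnf40+/+ included. Whether the Rnf40+/+ cells went through that step is not stated beyond this, so the deletion and exposure to the drug cannot be told apart. The labels name replicates but not the embryos or cultures behind them, and p-values then measure only the spread between these samples, which may be technical.

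KLFs are zinc finger transcription factors that bind GC-rich and CACCC elements in promoters and enhancers. Each has 3 C2H2 zinc fingers at its carboxyl end, and the remainder of the protein recruits co-activators or co-repressors and differs between subgroups. Klf2, Klf4, Klf5, Klf6 and Klf7 belong to a subgroup known mainly for activation, Klf3 to a subgroup that binds the co-repressor CTBP, and Klf9, Klf10 and Klf13 to a subgroup that binds SIN3. In fibroblasts several of them are known as serum- or growth factor-induced genes, and Klf4 is known as a reprogramming factor.

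The coding sequence of the second zinc finger is shown for each gene because it is the part the family shares, and the part where reads could in principle be misassigned between members. Sequences run 5′ to 3′ from the codon of the first cysteine to that of the last histidine and span 69 bases in every member (GENCODE M1 transcripts, NCBIM37). Capitals mark the 24 bases that are identical in all 10.
Klf2: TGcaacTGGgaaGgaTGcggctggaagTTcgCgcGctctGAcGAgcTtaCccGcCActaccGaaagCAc
Klf3: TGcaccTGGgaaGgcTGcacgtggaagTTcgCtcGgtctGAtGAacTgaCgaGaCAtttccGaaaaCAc
Klf4: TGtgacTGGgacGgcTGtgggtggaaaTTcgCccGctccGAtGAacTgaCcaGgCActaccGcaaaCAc
Klf5: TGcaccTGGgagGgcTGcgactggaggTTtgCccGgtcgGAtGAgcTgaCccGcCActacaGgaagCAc
Klf6: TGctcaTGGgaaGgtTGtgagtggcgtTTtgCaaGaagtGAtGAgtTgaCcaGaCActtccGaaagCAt
Klf7: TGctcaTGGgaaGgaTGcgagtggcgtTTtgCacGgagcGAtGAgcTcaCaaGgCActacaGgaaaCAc
Klf9: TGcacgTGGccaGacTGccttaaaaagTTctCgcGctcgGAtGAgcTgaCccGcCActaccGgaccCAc
Klf10: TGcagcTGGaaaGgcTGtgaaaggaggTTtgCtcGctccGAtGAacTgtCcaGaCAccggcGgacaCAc
Klf13: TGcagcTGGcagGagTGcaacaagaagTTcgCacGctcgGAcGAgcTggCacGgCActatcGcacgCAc
Klf15: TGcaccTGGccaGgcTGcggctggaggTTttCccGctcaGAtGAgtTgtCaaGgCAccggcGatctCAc
These 24 bases were 34.8% of the finger. Over all 3 fingers and their linkers, 243 bases in each gene, identity was highest between Klf6 and Klf7 at 81.1%, followed by Klf2 and Klf4 at 78.2% and Klf3 and Klf5 at 73.7%. The lowest identity was 57.2%, as between Klf4 and Klf9. No window of 50 bases in the protein-coding transcripts of any member occurred exactly in those of another gene. Among these transcripts, exact reads of that length or longer could be told apart. Non-coding genes, pseudogenes and the rest of the genome were not searched.

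Promoter windows, from 250 bases before to 50 bases after the RefSeq start (GRCm38.p6), were found for 8 of the 10 members, all except Klf5 and Klf10. The windows of Klf4 and Klf13 are shown because these genes moved in opposite directions. Capitals in both mark the GC box GGGCGG and the CACCC box CCACCC on either strand, and overlapping matches run together. That of Klf2 is shown because it held the only MEF2 site, which is in capitals there. Klf4 lies on the minus strand at chr4:55532426-55532725, Klf13 on the minus strand at chr7:63938866-63939165 and Klf2 on the plus strand at chr8:72318812-72319111.
Klf4: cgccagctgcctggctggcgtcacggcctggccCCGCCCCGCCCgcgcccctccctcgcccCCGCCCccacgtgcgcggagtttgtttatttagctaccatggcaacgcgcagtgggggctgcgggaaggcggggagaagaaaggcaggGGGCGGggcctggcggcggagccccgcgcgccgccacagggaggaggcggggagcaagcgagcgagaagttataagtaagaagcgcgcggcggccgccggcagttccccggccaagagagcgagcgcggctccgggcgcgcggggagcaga
Klf13: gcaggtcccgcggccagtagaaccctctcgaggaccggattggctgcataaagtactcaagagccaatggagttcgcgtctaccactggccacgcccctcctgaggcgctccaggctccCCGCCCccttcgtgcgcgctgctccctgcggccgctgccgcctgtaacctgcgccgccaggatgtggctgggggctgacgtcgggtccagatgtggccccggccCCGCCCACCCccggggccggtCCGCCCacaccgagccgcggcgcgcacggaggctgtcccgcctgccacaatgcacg
Klf2: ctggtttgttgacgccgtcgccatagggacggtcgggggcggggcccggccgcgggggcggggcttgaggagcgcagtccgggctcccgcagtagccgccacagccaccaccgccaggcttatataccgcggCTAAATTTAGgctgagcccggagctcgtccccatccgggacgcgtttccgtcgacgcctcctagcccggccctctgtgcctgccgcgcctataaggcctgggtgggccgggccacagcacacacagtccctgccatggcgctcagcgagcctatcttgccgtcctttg
The GC box was present in 7 of the 8 windows, all except that of Klf9, against 35.7% of 32851 mouse promoter windows. Klf4 had 4 matches, Klf13 had 3 and Klf2 had 2. The CACCC box was in 4 of the 8 windows (Klf2, Klf3, Klf7 and Klf13) against 31.5% of all windows. The member windows were GC-rich, from 58.3% in Klf7 to 76.7% in Klf3, against a mean of 53.8% over all windows. The MEF2 site of Klf2, CTAAATTTAG, began at -118 relative to the start, and 0.557% of all windows held such a site. The pattern TGANTCA, a loosened form of the AP-1 site with any base in the centre, matched in the Klf9 window alone, as TGAATCA. Of all windows, 7.81% held a match to this loosened pattern. TATAAA, the cyclic AMP element TGACGTCA and the CArG box were in none of the 8 windows. All motifs were searched on both strands, and a match describes the letters only.

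Values below are normalized counts, that is, reads per gene divided by a DESeq size factor for the library. Reads assigned to genes ranged from 17053436 to 26344170 per library. Rnf40 itself stood at 1278, 1195 and 1096 normalized counts in Rnf40+/+ MEFs and at 439, 519 and 487 in Rnf40-/- MEFs. The genotypes were separate in all libraries, and the log2 fold change (Rnf40-/- minus Rnf40+/+, on the log2 scale of the normalized count plus 1) was -1.30 (SE 0.09, limma adjusted p = 4.25e-07). A called change here means a Benjamini-Hochberg adjusted p under 0.05 over all genes tested. By that rule 23.3% of all genes tested were higher and 24.1% lower in Rnf40-/- MEFs, 47.4% in either direction, and the median log2 fold change of all genes was -0.0035.

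Among the 10 KLFs, Klf4 and Klf5 rose, Klf10 and Klf13 fell, and the other 6 did not pass the test. The share called was thus 40.0%, below the 47.4% of all genes tested. The values of the genotypes did not overlap for 8 of the 10, with Klf4, Klf5, Klf6 and Klf15 higher and Klf2, Klf7, Klf10 and Klf13 lower in Rnf40-/- MEFs. Over all genes tested, 56.5% were without overlap, 27.8% higher and 28.7% lower. The median log2 fold change of the KLFs was 0.19. Their median absolute log2 fold change was 0.38 against 0.33 for all genes tested.

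**Figure D1:**
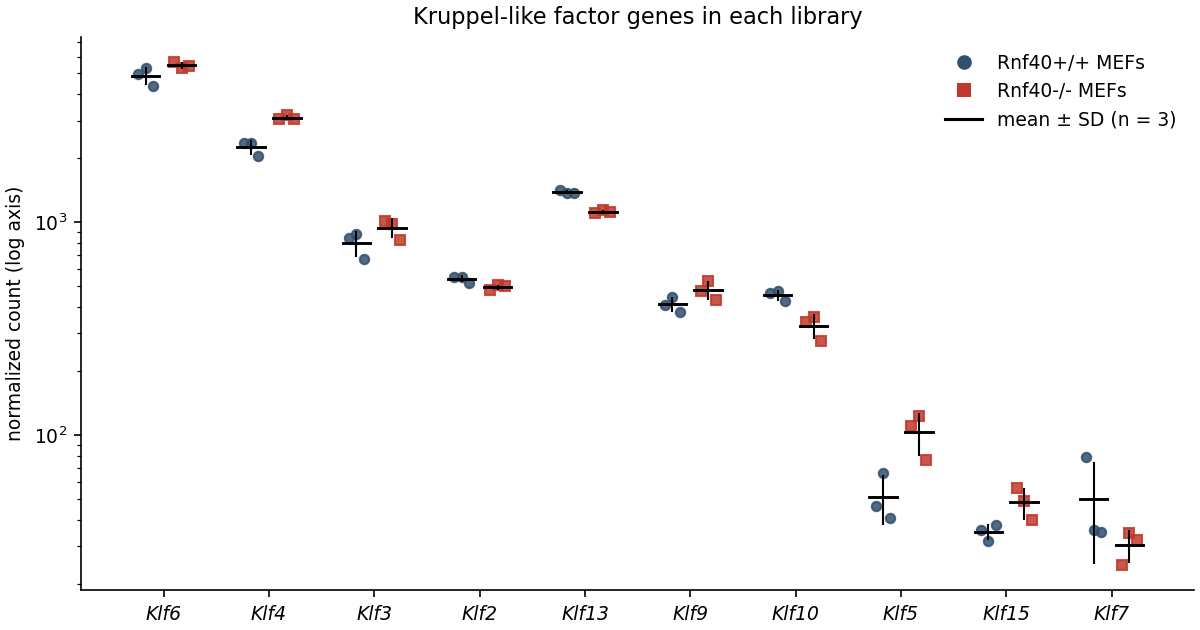
Normalized counts of the 10 KLF genes (log axis) in each Rnf40+/+ library (circles) and Rnf40-/- library (squares), with bars for the mean ± SD of 3 libraries. Klf6 and Klf4 lie highest in both genotypes, the genotypes of Klf4, Klf5, Klf10 and Klf13 are apart, and a single Rnf40+/+ library of Klf7 stands at 78.8 while its other libraries lie between 24.5 and 35.7.

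Of the activator subgroup, Klf4 was the member with the clearest rise. Klf4, a regulator of epithelial barrier formation, vascular cells and pluripotency, lies on chromosome 4 (mm9 chr4:55540013-55545347, minus strand). Its normalized counts were 2342, 2366 and 2036 in Rnf40+/+ MEFs, and 3066, 3189 and 3046 in Rnf40-/- MEFs. Every Rnf40-/- library was thus above every Rnf40+/+ library. The mean went from 2248 ± 184 to 3100 ± 77.6 (SD, n = 3 each), that is, by a log2 fold change of 0.47 (SE 0.07, 95% interval 0.31 to 0.62, limma adjusted p = 0.000223). Without each library in turn, it ranged from 0.40 to 0.51.

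Klf5, a factor of proliferating epithelium and of vascular remodelling, had a low level and the largest rise among the KLFs. The gene lies at mm9 chr14:99697910-99712624 on the plus strand. Rnf40+/+ libraries had 46.6, 66.3 and 40.7 normalized counts, against 110, 122 and 76.5 for Rnf40-/- libraries. The lowest Rnf40-/- library, replicate 3, was above the highest Rnf40+/+ library, replicate 2. Behind these values were 39, 65 and 51 reads and 108, 117 and 81 reads, respectively. The mean went from 51.2 ± 13.4 to 103 ± 23.7, with a log2 fold change of 0.996 (SE 0.24, 95% interval 0.47 to 1.52, limma adjusted p = 0.00488). Its absolute change was larger than that of 88.0% of the genes tested. Leaving out single libraries moved the log2 fold change between 0.85 and 1.19, and the call held in each case.

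The study's methods call a gene by p under 0.05, mean above 15 and a log2 fold change above 1 or below -1, with fold changes from DESeq. With these limits applied to the limma fit used here, which is on another scale, 0 of the 10 KLFs passed in either direction, against 4.25% of all genes tested upward and 5.7% downward. Klf5 lay at the limit, and whether it passed depended on the fit. It was at 0.996 with limma, which did not pass, and at 1.02 with both the DESeq2 Wald test and the edgeR quasi-likelihood test on recovered reads, which did. Without Rnf40+/+ replicate 2 or without Rnf40-/- replicate 3 it stood at 1.19 and also passed.

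Klf2, closest to Klf4 in finger sequence and known for quiescence of endothelial cells and lymphocytes, did not rise with it. It is found at mm9 chr8:74842932-74845555 on the plus strand. The normalized counts were 552, 555 and 518 in Rnf40+/+ MEFs and 479, 504 and 501 in Rnf40-/- MEFs. The genotypes did not overlap, though the lowest Rnf40+/+ library and the highest Rnf40-/- library were close. The log2 fold change was -0.13 (SE 0.08, 95% interval -0.31 to 0.05, limma adjusted p = 0.217). Within a library, where no scaling is needed, the ratio of Klf4 to Klf2 counts was 4.24, 4.26 and 3.93 in Rnf40+/+ MEFs and 6.40, 6.33 and 6.08 in Rnf40-/- MEFs. The means were 4.15 ± 0.19 and 6.27 ± 0.17, without overlap.

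Klf6, a ubiquitous factor first described as an early response gene, had the highest level in all 6 libraries. Its locus is mm9 chr13:5860735-5869639 on the plus strand. It stood at 4949, 5299 and 4365 normalized counts in Rnf40+/+ MEFs and at 5661, 5307 and 5391 in Rnf40-/- MEFs. Rnf40+/+ replicate 2 and Rnf40-/- replicate 2 were nearly level, and the genotypes were separated only by that gap. On the log2 scale the difference was 0.17 (SE 0.08, 95% interval 0.0018 to 0.33, limma adjusted p = 0.0896), which did not pass. Without Rnf40+/+ replicate 2 it was 0.23 and passed (adjusted p = 0.029).

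Klf7, known for its part in axon outgrowth and in adipocytes and the closest relative of Klf6, was near the bottom of the range. Its locus is mm9 chr1:64076021-64168856 on the minus strand, where Gm17427 and Gm13748 are annotated over it on the opposite strand. The libraries were prepared with a directional kit, but the strand setting of the counting is not given in the sources used here. Klf7 was found at 78.8, 35.7 and 35.1 normalized counts in Rnf40+/+ MEFs and at 24.5, 34.4 and 32.1 in Rnf40-/- MEFs. Rnf40+/+ replicate 1 stood apart from all other libraries, whose values were close to each other. The log2 fold change was -0.61 (SE 0.33, 95% interval -1.32 to 0.11, limma adjusted p = 0.149), and without Rnf40+/+ replicate 1 it was -0.23 (adjusted p = 0.557).

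Klf3, the member of the CTBP-binding subgroup, is known as a repressor in blood cells, fat and muscle. Its locus is mm9 chr5:65194628-65221368 on the plus strand. The values were 842, 879 and 673 normalized counts in Rnf40+/+ MEFs and 1014, 980 and 825 in Rnf40-/- MEFs. Rnf40-/- replicate 3 fell within the range of the Rnf40+/+ libraries, so the genotypes overlapped. The difference on the log2 scale was 0.24 (SE 0.11, 95% interval -0.0028 to 0.48, limma adjusted p = 0.0964). Without Rnf40-/- replicate 3 it was 0.33 and passed (adjusted p = 0.0451).

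In the SIN3-binding subgroup, Klf10 and Klf13 fell and Klf9 did not pass. Klf10, also known as TGF-beta-inducible early gene, lies at mm9 chr15:38221219-38230464 on the minus strand. It was at 466, 474 and 424 normalized counts in Rnf40+/+ MEFs and at 340, 360 and 277 in Rnf40-/- MEFs. All Rnf40-/- libraries were below all Rnf40+/+ libraries. The mean went from 455 ± 26.9 to 325 ± 43.5 (SD, n = 3 each), for a log2 difference of -0.49 (SE 0.11, 95% interval -0.74 to -0.24, limma adjusted p = 0.00381). Single libraries left out gave -0.57 to -0.38.

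Klf13, known for the regulation of Ccl5 in T cells and for heart development, had the least spread between replicates relative to its mean. The gene spans mm9 chr7:71031237-71083801 on the minus strand. Rnf40+/+ libraries held 1414, 1376 and 1377 normalized counts of it, against 1100, 1138 and 1111 for Rnf40-/- libraries. The genotypes were far apart relative to that spread, with means of 1389 ± 21.8 and 1116 ± 19.2. The log2 fold change was -0.31 (SE 0.06, 95% interval -0.46 to -0.17, limma adjusted p = 0.00168), and it ranged from -0.33 to -0.30 without single libraries.

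Klf9, a target of glucocorticoid and thyroid hormone receptors, has its locus at mm9 chr19:23215716-23241401 on the plus strand, where Mir1192 overlaps it and had no reads. It was at 408, 446 and 378 normalized counts in Rnf40+/+ MEFs and at 473, 531 and 432 in Rnf40-/- MEFs. The lowest Rnf40-/- library, replicate 3, lay below the highest Rnf40+/+ library, replicate 2. The log2 difference came to 0.22 (SE 0.10, 95% interval -0.0086 to 0.45, limma adjusted p = 0.105). The within-library ratio of Klf9 to its close relative Klf13 had means of 0.296 ± 0.025 in Rnf40+/+ MEFs and 0.429 ± 0.039 in Rnf40-/- MEFs. The libraries ranged from 0.274 to 0.324 and from 0.389 to 0.467, respectively, without overlap.

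Klf15, known for amino acid and glucose metabolism and as a glucocorticoid target, stands outside these subgroups. Its locus is mm9 chr6:90412570-90425232 on the plus strand. The normalized counts were 35.8, 31.6 and 37.5 in Rnf40+/+ MEFs and 56.1, 49.1 and 39.7 in Rnf40-/- MEFs, from 30 to 55 reads per library. The genotypes were separate by a small gap between Rnf40+/+ replicate 3 and Rnf40-/- replicate 3. The log2 fold change was 0.44 (SE 0.24, 95% interval -0.08 to 0.96, limma adjusted p = 0.15), close in size to that of Klf4 and with a wider interval.

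**Figure D2:**
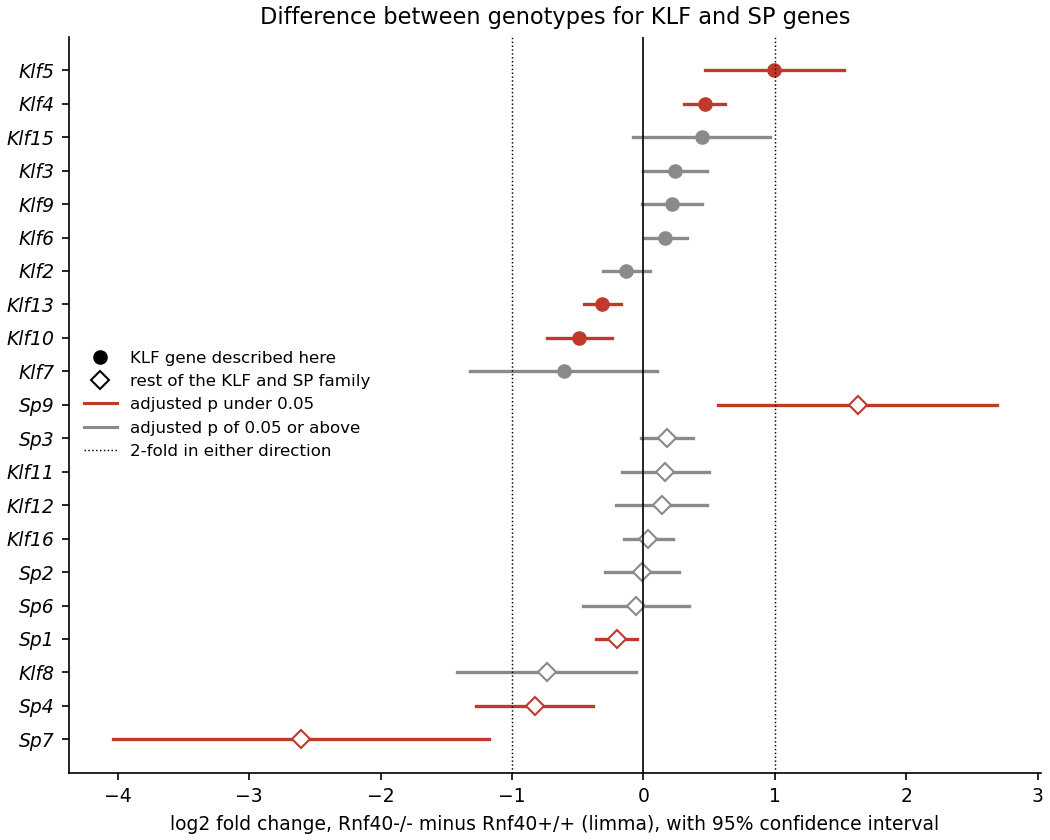
Log2 fold change (Rnf40-/- minus Rnf40+/+, limma) with its 95% confidence interval for the 10 KLF genes (filled circles) and the 11 tested genes of the rest of the KLF and SP family (open diamonds), with red for adjusted p under 0.05. Klf5 lies at the 2-fold line, Klf4 right of 0, Klf13 and Klf10 left of 0, and the intervals of the other KLFs reach or come close to 0.

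Levels of different genes were compared per kb of exon (merged exons, GENCODE M1, mm9), since longer transcripts give more reads. The authors mapped to a UCSC mm9 transcriptome, and the annotation used for counting is not given. These lengths may therefore differ from those of the counted gene models, and the order, sums and shares below rest on them. In both genotypes the order of mean level from high to low was Klf6, Klf4, Klf3, Klf2, Klf13, Klf9, Klf10, Klf5, Klf15 and Klf7. Neighbours in this order overlapped between libraries for Klf3 and Klf2 and for Klf9 and Klf10 in Rnf40+/+ MEFs, and for no pair in Rnf40-/- MEFs. Klf6 went from 1155 ± 112 to 1293 ± 43.9 normalized counts per kb and Klf4 from 735 ± 60.2 to 1013 ± 25.4. At the low end Klf7 was at 6.13 ± 3.08 and 3.73 ± 0.64.

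The sum of the 10 genes per kb was 3072, 3191 and 2717 in Rnf40+/+ MEFs and 3482, 3473 and 3299 in Rnf40-/- MEFs. The sum was thus higher in each Rnf40-/- library than in any Rnf40+/+ library. Klf6 and Klf4 made up most of it in both genotypes. The share of Klf4 was 24.5% ± 0.34 in Rnf40+/+ MEFs and 29.7% ± 0.76 in Rnf40-/- MEFs (SD, n = 3). The share of Klf6 had means of 38.6% and 37.9%, and its libraries overlapped. The shares of Klf2 (9.82% and 7.85%), Klf13 (7.06% and 4.95%) and Klf10 (3.98% and 2.49%) were lower in Rnf40-/- MEFs, each without overlap. Shares add to a whole, so a rise in Klf4 by itself lowers the others.

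**Figure D3:**
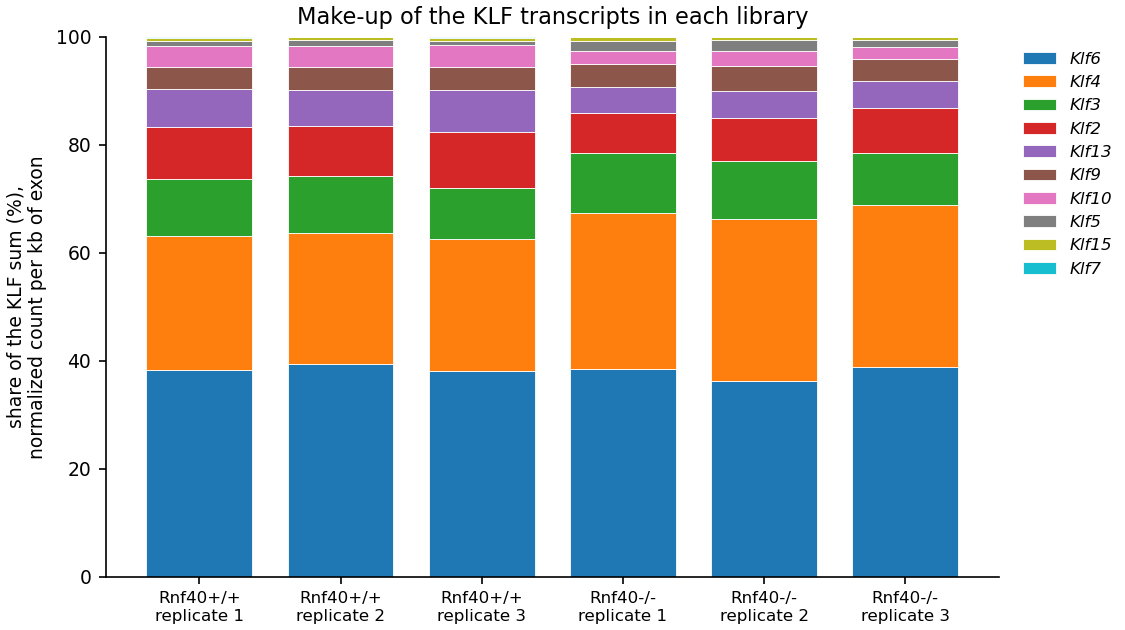
Share of each KLF gene in the sum of the 10 genes (%, normalized count per kb of exon), stacked for each of the 6 libraries. The Klf4 block is 24.2% to 24.9% in the Rnf40+/+ libraries and 28.8% to 30.2% in the Rnf40-/- libraries, and the Klf6 block is between 36.2% and 39.4% in all.

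The nearest protein-coding gene in the count table on each side was set beside each KLF. Distances ranged from 11.2 kb (Aldh1l1 from Klf15) to 1252 kb (Akr1e1 from Klf6). Of these 20 genes, 18 were tested, 2 were higher and 2 lower in Rnf40-/- MEFs. Over all genes tested, 23.3% were higher and 24.1% lower. Both genes beside Klf2 rose, Ap1m1 by 0.26 (adjusted p = 0.00746) and Eps15l1 by 0.63 (adjusted p = 2.32e-05), while Klf2 was at -0.13. Azin1, 187 kb from Klf10, fell by 0.26 (limma adjusted p = 0.013). Pitrm1, 678 kb from Klf6, fell by 0.48 (limma adjusted p = 8.24e-05). Neither tested neighbour of Klf13, Otud7a or Trpm1, passed, with log2 fold changes of 0.50 and 0.58. The flanks of Klf4 held Rad23b at 0.05, which did not pass, and Actl7b, which had too few reads to test. Klf5 lay beside Pibf1 (-0.34, adjusted p = 0.0592) and Klf12 (0.14), which did not pass either. The tested flanking genes of Klf3, Klf7, Klf9 and Klf15 did not pass.

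The rest of the KLF and SP family comprised 16 genes, of which 11 were tested. In Rnf40-/- MEFs 1 was higher and 3 were lower, with a median log2 fold change of -0.01. The share called was 36.4%, against 47.4% of all genes tested. Sp7, the osteoblast factor osterix, fell by 2.61 on the log2 scale (SE 0.66, adjusted p = 0.00608), from 11, 17 and 20 reads to 4, 0 and 3. Sp9 was at 5, 3 and 10 reads and at 11, 25 and 23, a log2 fold change of 1.63 (SE 0.49, adjusted p = 0.0155), and it was the only gene of the list called higher. Without Rnf40-/- replicate 2, without Rnf40-/- replicate 3 or with at least 10 reads required in every library, no gene of the list was called higher. Up to 3 were called higher without Rnf40+/+ replicate 1. Sp4 fell by 0.83 (adjusted p = 0.00558) and Sp1, a ubiquitous activator, by 0.20 (adjusted p = 0.03). Sp3 and Klf16 had the highest means of those that did not pass, at 0.18 and 0.04. The 5 genes not tested were Klf1, Klf14, Klf17, Sp5 and Sp8. Of these Sp5 had 0, 0 and 1 reads in Rnf40+/+ MEFs and 8, 11 and 18 in Rnf40-/- MEFs.

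Genes upstream of KLFs were described next. ERK5 kinase and MEF2 factors are known to drive Klf2 and Klf4. Of 6 tested genes of that axis, 1 was higher and 3 were lower in Rnf40-/- MEFs, with a median of -0.23 against -0.0035 for all genes tested. The share called was 66.7%, against 47.4% of all genes tested. Mef2a rose by 0.43 (adjusted p = 0.00075), while Mef2c fell by 0.62 (adjusted p = 0.0187), Mef2d by 0.38 (adjusted p = 0.00148) and Mapk7, which encodes ERK5, by 0.32 (adjusted p = 0.017). Map3k3 and Map2k5, the kinases above it, did not pass, at 0.02 and -0.13. The list thus held called genes in both directions. With single libraries left out, the number called lower was 2 to 3, and the number called higher stayed at 1.

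The glucocorticoid receptor is known to induce Klf9, Klf13 and Klf15. All 5 tested genes of the receptor and its textbook targets passed, 2 higher and 3 lower in Rnf40-/- MEFs, with a median of -0.26. Of all genes tested, 47.4% passed. With single libraries left out, the number of this list called lower was 2 to 3, so not all 5 passed in each such fit. The receptor gene Nr3c1 rose by 0.61 (adjusted p = 3.87e-05) and the clock gene Per1 by 0.47 (adjusted p = 0.000707). Tsc22d3 fell by 1.24 (adjusted p = 8.62e-07), Fkbp5 by 0.99 (adjusted p = 3.73e-05) and Sgk1 by 0.26 (adjusted p = 0.0225). Of the KLFs known to respond, Klf9 and Klf15 had positive values that did not pass and Klf13 fell, as given above.

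KLF proteins act through co-regulators and are degraded after ubiquitin ligases act on them. All 11 co-regulator genes were tested, with 4 called higher, 2 called lower and a median log2 fold change of 0.07. The share called was 54.5%, near the 47.4% of all genes tested. The acetyltransferase genes Kat2b (0.67), Crebbp (0.42) and Ep300 (0.33) rose, as did Sin3b (0.19), which encodes a partner of the Klf9, Klf10 and Klf13 subgroup. Of the genes for the CTBP partners of KLF3, Ctbp1 fell by 0.46 and Ctbp2 was at -0.01 (adjusted p = 0.902), which did not pass. The deacetylase gene Hdac3 fell by 0.37. Hdac2 and Hdac1 were at -0.01 and -0.04 and did not pass. Without Rnf40-/- replicate 1 the number called higher was 2. Of 6 ubiquitin ligase genes, all tested, 3 were higher, Smurf2 (0.62), Vhl (0.46) and Fbxo32 (0.36), and 0 were lower, with a median of 0.31. Their share called was 50%, also near the 47.4% of all genes tested, of which 23.3% were higher. Smurf1 and Wwp1 were at 0.03 and 0.22 and did not pass. Without Rnf40+/+ replicate 2 the number called higher was 5.

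A list of 27 textbook target genes of single KLFs followed, of which 23 were tested, 4 were higher and 11 lower in Rnf40-/- MEFs. Their median log2 fold change was -0.27, and 65.2% of the tested targets were called. For comparison, 47.4% of all genes tested were called, 23.3% as higher and 24.1% as lower. Tagln, a smooth muscle gene that KLF4 is known to repress, fell by 3.10 on the log2 scale, from 47935 ± 2930 to 5587 ± 462 normalized counts. Fam132a, a target of KLF3 repression, fell by 1.64, and Dlk1, a preadipocyte gene linked to KLF6 repression, fell from 1694 ± 63.9 to 598 ± 48.8 normalized counts. S1pr1, a KLF2 target in lymphocytes, fell by 1.20. Prodh, which encodes proline dehydrogenase and is a KLF15 target, rose by 1.28 (SE 0.38, limma adjusted p = 0.0147). It rested on 10, 8 and 15 reads in Rnf40+/+ MEFs and 29, 17 and 40 in Rnf40-/- MEFs. With at least 10 reads required in every library, 3 targets were called higher. Without Rnf40-/- replicate 1 or replicate 3 the number called higher was 2. Col1a1, which fell by 0.80, is also in the fibroblast marker list below. Ctgf, the most abundant of those that did not pass, was at -0.03, followed by Smad7 at 0.15.

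Several KLFs are induced by serum together with immediate early genes. All 15 genes of that list were tested and called, 7 higher and 8 lower in Rnf40-/- MEFs, with a median of -0.30. Of all genes tested, 47.4% were called. Egr3 (-1.51), Egr2 (-1.39), Egr1 (-1.14) and Nr4a1 (-1.13) fell, and Atf3 (0.97) rose. Klf10 and Klf6, often grouped with early response genes, had values of -0.49 and 0.17. The smallest change in the list was that of Jun, at -0.30.

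**Figure D4:**
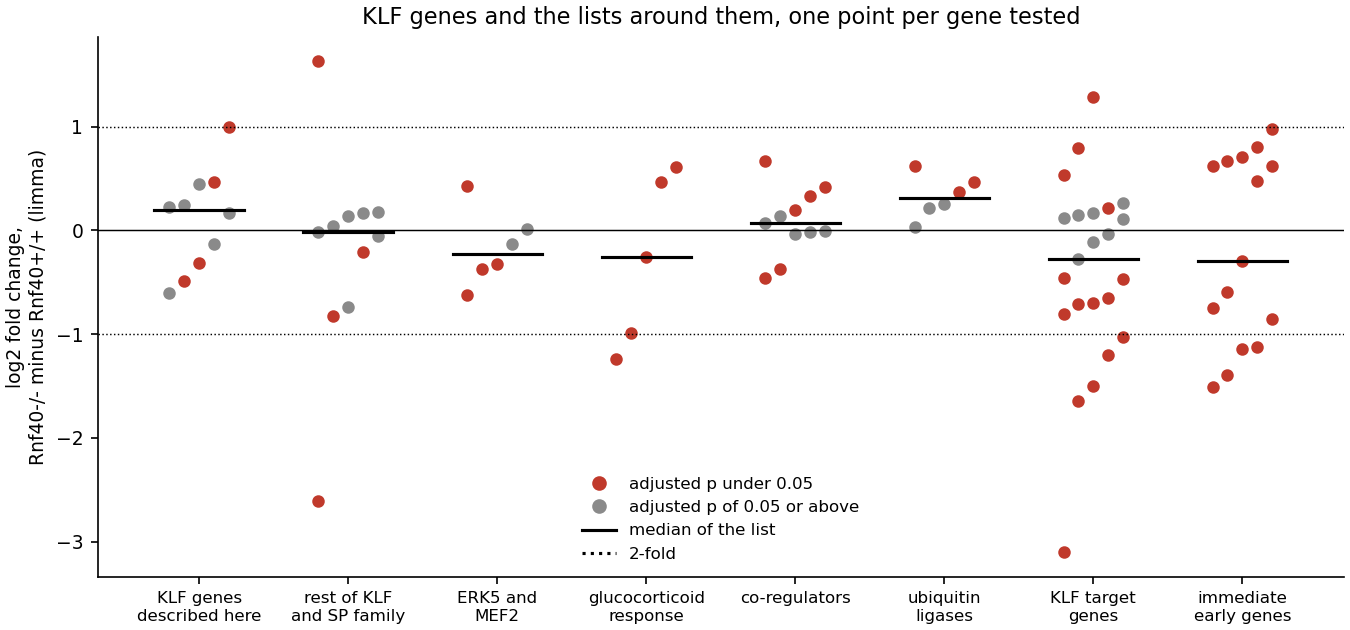
Log2 fold change (Rnf40-/- minus Rnf40+/+, limma) of each tested gene in the KLF group and in 7 related lists, with bars for the median of each list and red points for adjusted p under 0.05. The KLF genes lie between -0.61 and 0.996, while targets, immediate early genes, the glucocorticoid list and the rest of the family reach beyond the 2-fold lines, with Tagln lowest at -3.10.

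Markers of other cell types were set beside the KLFs, because Klf2 and Klf4 are also expressed in endothelium and macrophages and Klf5 in epithelium. Of all genes tested, 47.4% were called, which is the background for the counts below. The labelled cell type was borne out by fibroblast genes, with Col1a1, Col1a2 and Vim abundant in all libraries, although 7 of 9 fibroblast markers tested fell and none rose. Summed endothelial markers ranged from 146 to 282 normalized counts in Rnf40+/+ MEFs and from 234 to 333 in Rnf40-/- MEFs. The upper end of the Rnf40+/+ range came with Tek, at 115 in Rnf40+/+ replicate 1 and at 11.2 and 16.0 in replicates 2 and 3. Of 5 tested, Pecam1, Cdh5 and Kdr rose and Emcn fell. Pecam1 went from 3.75 ± 1.22 to 27.6 ± 8.34 normalized counts. Epithelial markers summed to between 33.7 and 107 and between 39.7 and 64.2, and of 3 tested 0 passed. The upper end of the Rnf40+/+ range came from Krt8, at 58.5 in Rnf40+/+ replicate 1 and at 9.58 or less in the other libraries. The tested ones went both ways, with Krt5 at 0.37, Krt14 at -0.12 and Krt18 at -0.51 on the log2 scale. Epcam had too few reads to test. It was at 0, 0 and 2 reads in Rnf40+/+ MEFs and at 4, 4 and 9 in Rnf40-/- MEFs. Macrophage markers summed to between 4868 and 8789 and between 3226 and 3529, with Ptprc and Cd14 higher and Lyz2 lower in Rnf40-/- MEFs. Csf1r, Emr1 and Cd68 did not pass. Lyz2 made up most of these sums. It was at 7440 in Rnf40+/+ replicate 3, the upper end, and at 3945 and 4557 in replicates 1 and 2. Of 5 adipocyte markers Fabp4 alone was tested, and it rose from 46.7 ± 18.2 to 129 ± 11.4 (log2 fold change 1.51, adjusted p = 0.000378), while Adipoq was at 0 in all libraries. Of 5 skeletal muscle markers Actn2 alone was tested, at 336 ± 112 and 335 ± 108 (adjusted p = 0.999), while Myod1 was at 0 in all libraries. None of the erythroid markers was tested, and Hbb-b1 was at 0 in all libraries. The part of these cells in the KLF values was not tested, and in bulk samples fewer cells of a type and less RNA per cell cannot be told apart.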

How the data were processed

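RNA was sequenced from 3 Rnf40+/+ and 3 Rnf40-/- MEF libraries, prepared with a directional kit. The authors mapped reads to the mouse mm9 reference, and the submitters' processing notes name Bowtie2 2.1.0 and DESeq 1.14.0. The counting tool is not given in the sources used here. The deposited signal is a count per gene divided by a DESeq size factor, and 100% of the positive values came out as whole reads (within 0.05 of a read). Recovered reads per library ranged from 17053436 to 26344170, and intervals cover the spread between libraries.

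Genes were filtered by genotype with edgeR's filterByExpr on recovered reads. Fold changes were fitted with limma 3.58.1 (trend, R 4.3.3) on log2(normalized count + 1), with Benjamini-Hochberg adjustment over 16378 genes. A fold change on this scale understates the change of low genes. Alternatives were edgeR 4.0.16, which called 3857 genes higher and 3940 lower, DESeq2 1.42.0, other scalings, filters and pseudocounts, a replicate block and single libraries left out. The fits were tested on simulated data in which far fewer genes changed than were called here, each by 2-fold or more. That test does not show how the fits perform for smaller changes, such as those of most KLFs. No libraries were duplicates. Promoter sequences were from RefSeq (GRCm38.p6), and positions and exon lengths from GENCODE M1 (mm9).

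The KLF genes and all gene lists were chosen with earlier results of these data known. Named were all KLFs, and per list up to 5 called genes with the largest changes and up to 2 of highest mean that did not pass. Also named were genes that overlap or flank a KLF. Other genes named (Sp5, Sin3b, Ctbp2, Jun, Col1a1 and single markers) were chosen after their values were seen.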

Additional observations from a re-analysis of the deposited data

How the results depend on the processing

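Of 160 KLF fold changes under alternatives, 157 kept their direction and their side of the threshold, 3 newly passed (Klf6 without 1 library, and Klf3 without 1 library or with the replicate block) and none changed sign. Klf4, Klf5, Klf10 and Klf13 were called under all 16 alternatives. The number of KLFs past 2-fold upward was 1, from 0, with the edgeR test, the DESeq2 Wald test, TMM factors and a pseudocount of 0.1, and 0 to 1 with single libraries left out. The rest of the KLF and SP family had 2 genes called higher without a filter on low counts, 0 with at least 10 reads in every library and 0 to 3 with single libraries left out. With single libraries left out, genes called higher were 2 to 4 among co-regulators, 3 to 5 among ubiquitin ligases and 2 to 3 among KLF targets. The cause of these moves was not tested, beyond the samples or genes left out. Of 288 such counts, 270 were within 1.5 times the main count. Over all genes tested, same-numbered libraries did not deviate together, with correlations of their deviations of 0.0118, 0.0174 and 0.0212. This gave no sign of pairing by number, but near-0 correlations cannot exclude it, and whether the samples were paired is not known. With the replicate number as a block, Klf3 was called (adjusted p = 0.016) and 5 ubiquitin ligases were higher instead of 3, and no other KLF changed side. Among the KLFs, depth limits Klf5, Klf7 and Klf15, with 24 to 117 reads per library. It also limits Sp7, Sp9 and Prodh, and 3 libraries a genotype limit all intervals.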
